A study of Mus musculus with 6 samples.

Results

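The insulin-like growth factor (IGF) system was described in aged mouse lung through 10 genes, taken by symbol from the 31054 counted features. They are the ligands Igf1 and Igf2, the receptors Igf1r and Igf2r, and the binding proteins Igfbp2, Igfbp3, Igfbp4, Igfbp5, Igfbp6 and Igfbp7. All 10 were found, each as 1 feature.

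IGF1 and IGF2 are small secreted hormones related to insulin that signal through the receptor tyrosine kinase IGF1R, whereas IGF2R carries IGF2 to lysosomes and does not signal in that way. In tissue fluid the ligands are held by binding proteins, which prolong their life and limit their access to the receptor. Proteases such as PAPP-A, which cuts IGFBP4, and PAPP-A2, which cuts IGFBP3 and IGFBP5, release the ligand again. In lung, IGF1 comes largely from mesenchymal cells and macrophages, and several binding proteins are known as secreted products of senescent cells.

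The lungs came from male C57BL/6 mice aged 21 months. All of them carried p16-CreERT2, in which the promoter of Cdkn2a (the gene of p16) drives a tamoxifen-dependent Cre, and 3 also carried R26-LSL-DTR, a diphtheria toxin receptor that Cre switches on (the p16-DTR group). The other 3 lacked the receptor allele and were the controls. Both groups received tamoxifen for 5 days, waited 2 weeks, received diphtheria toxin for 5 days and recovered for 2 weeks, so toxin and tamoxifen are shared and the receptor allele is the labelled difference. Each library held 1 mouse and mixed 20000 sorted CD45-negative with 9000 CD45-positive cells, so the sort sets the immune share in part. P-values between the groups measure the spread between these 3 mice and 3 mice. Those for the order of classes are paired within each library, with both groups together. Those for a difference of change between a pair of classes take the library as a block.

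The libraries held 254200305 to 344421685 UMIs (unique molecular identifiers, each standing for 1 captured transcript) in 13482 to 17332 barcodes, and 91156 of 94392 barcodes were retained. Of these, 79262 cells (87.0%) passed a marker gate into 31 classes. A class name below stands for cells that carry at least 3 of its 7 markers, and is to be read as "like" that type; 6066 gated cells sat at exactly 3. Cdkn2a, whose expressing cells the toxin was meant to remove, stood at 7.10, 8.57 and 7.31 CPM (UMIs of a gene per 1000000 UMIs) in the p16-DTR libraries and at 1.15, 2.60 and 2.84 in the controls, higher in the former. That goes against the intended removal of these cells, so every direction below is one between libraries by label, and those of the p16-DTR group are called p16-DTR-labelled. UMIs of tdTomato numbered 89, 74 and 94 in the former and 0 in each control. Stress genes were lower in the p16-DTR-labelled libraries (7600 to 8152 CPM against 8354 to 10481), and their part in the results was not tested. Barcodes found in more than 1 library numbered 1055.

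Promoter sequence is shown for 3 binding proteins on which the results turn: Igfbp4 and Igfbp6, which moved in opposite directions in the same fibroblasts, and Igfbp2, whose transcripts lay mostly in 1 epithelial class. Each line holds the 250 bases before the RefSeq start (GRCm38.p6, 5′ to 3′ on the gene's strand). Capitals mark matches on either strand to TATAAA (the TATA box) or GGGCGG (the GC box), which share no base here. Igfbp2 has 2 RefSeq start sites, and the window shown is that of the first. The AP-1 motif TGANTCA was also searched on both strands, as was the forkhead motif GTAAACA, and neither has a match in these 3 windows.
Igfbp4: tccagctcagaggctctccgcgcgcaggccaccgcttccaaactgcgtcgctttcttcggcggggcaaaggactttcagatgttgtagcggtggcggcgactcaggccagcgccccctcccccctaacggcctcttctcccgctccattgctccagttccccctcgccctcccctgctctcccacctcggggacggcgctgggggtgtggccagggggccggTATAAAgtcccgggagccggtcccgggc
Igfbp6: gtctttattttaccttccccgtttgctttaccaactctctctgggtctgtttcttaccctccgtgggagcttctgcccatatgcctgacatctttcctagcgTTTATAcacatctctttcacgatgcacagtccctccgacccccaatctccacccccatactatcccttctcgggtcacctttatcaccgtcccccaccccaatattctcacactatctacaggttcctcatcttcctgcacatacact
Igfbp2: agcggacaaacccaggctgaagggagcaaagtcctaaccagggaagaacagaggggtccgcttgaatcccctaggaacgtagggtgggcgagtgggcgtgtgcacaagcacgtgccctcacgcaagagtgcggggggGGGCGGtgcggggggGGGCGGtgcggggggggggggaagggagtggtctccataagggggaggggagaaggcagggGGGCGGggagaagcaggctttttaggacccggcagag
The Igfbp4 window lies at chr11:99040994-99041243 (plus strand), and its TATAAA begins 28 bases before the start. The Igfbp6 window lies at chr15:102143936-102144185 (plus strand) and holds TATAAA on the opposite strand only, 148 bases before the start. The Igfbp2 window, at chr1:72824230-72824479 (plus strand), holds GGGCGG 3 times, whereas the window of the second start (chr1:72825137-72825386, plus strand), not shown, holds 1 match to TGANTCA and none to GGGCGG. Among 32851 promoter windows of the same length, TATAAA was found in 12.4%, GGGCGG in 32.7% and TGANTCA in 6.75%. These matches describe letters and show no bound factor.

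Among the ligands, Igf1 was highest in interstitial macrophages (215 ± 58.7 CPM of the class, SD, n = 6 libraries), peribronchial fibroblasts (201 ± 27.9) and adventitial fibroblasts (189 ± 57.1). These 3 classes did not differ beyond their spread: interstitial macrophages exceeded peribronchial fibroblasts in 3 of 6 libraries. Adventitial fibroblasts, the next in the order, exceeded smooth muscle in 6 of 6 libraries. Adventitial fibroblasts held 38.3% of all Igf1 UMIs and alveolar fibroblasts 32.7%. Igf2 was hardly detected, with 346 UMIs in all 6 libraries, and its highest class mean was 2.44 CPM, in peribronchial fibroblasts.

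Between the groups, Igf1 in adventitial fibroblasts stood at 167, 184 and 155 CPM in the p16-DTR-labelled libraries and at 303, 149 and 179 in the controls. The groups overlapped, and control replicate 1 alone stood apart. The log2 fold change was -0.33 (adjusted p = 0.58, edgeR's quasi-likelihood test with Benjamini-Hochberg adjustment) and turned to 0.04 without that library. In alveolar fibroblasts Igf1 stood at 41.2, 53.7 and 54.7 against 41.9, 22.8 and 38.9, also overlapping (adjusted p = 0.173, edgeR). Igf1 was tested in 12 of 19 classes and Igf2 in 2, and neither passed an adjusted p of 0.05 in any of them.

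**Figure D1:**
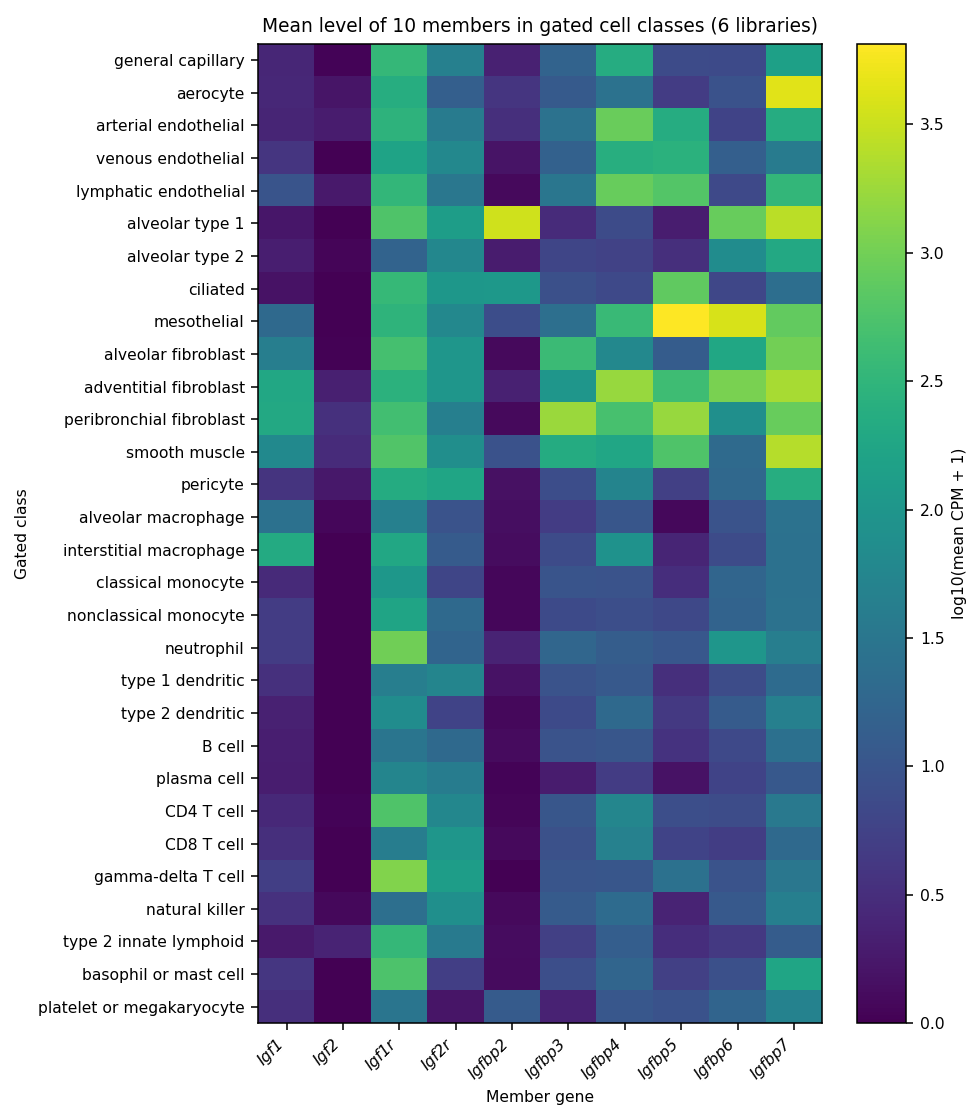
Mean level of each member (columns) in 30 gated classes (rows), as log10(CPM + 1) over 6 libraries. Igfbp2 is brightest in alveolar type 1 cells (3399 CPM), Igfbp5 and Igfbp6 in mesothelial cells (6512 and 3825), and Igf2 is dark throughout.

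The signalling receptor Igf1r was highest in gamma-delta T cells (1231 ± 165 CPM, SD, n = 6) and next in neutrophils (977 ± 64.5). Gamma-delta T cells exceeded neutrophils, and neutrophils exceeded smooth muscle (590 ± 26.6), in 6 of 6 libraries each. Igf2r was highest in pericytes (174 ± 20.7), above alveolar type 1 cells (132 ± 22.5) in 6 of 6 libraries. Alveolar type 1 cells and gamma-delta T cells (130 ± 24.2) did not differ in Igf2r beyond their spread. Over all members, 290 neighbouring pairs of classes were compared. Of these, 36 reached 0.03125, the smallest two-sided p that an exact sign-flip test over 6 libraries can give, and the smallest adjusted p was 0.252.

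Both receptors were tested in all 19 classes with at least 50 cells in every library, and neither was called in any. In peribronchial fibroblasts Igf1r stood at 411, 409 and 359 CPM in the p16-DTR-labelled libraries and at 512, 539 and 529 in the controls. The groups did not overlap, as for 23.4% of all genes tested in this class, and the log2 fold change of -0.39 (SE 0.10) missed the threshold (adjusted p = 0.0687, edgeR). Its fold change was above 0 in 4 of 19 classes, and that of Igf2r in 11. Igf2r in alveolar fibroblasts stood at 87.7, 99.4 and 94.3 against 104, 103 and 103, without overlap and without a call.

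Igfbp2 lay in alveolar type 1 cells, the flat cells of gas exchange, which held 76.1% of its UMIs, and ciliated cells came next (108 ± 20.1 CPM). Igfbp3 was highest in peribronchial fibroblasts (1754 ± 262) and then in alveolar fibroblasts (399 ± 60.1), which held 69.3% of its UMIs. Igfbp4 was highest in adventitial fibroblasts (1675 ± 110), with 43.4% of its UMIs. Arterial (868 ± 119) and lymphatic endothelial cells (836 ± 95.3) followed for Igfbp4 and did not differ beyond their spread.

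Igfbp5 and Igfbp6 were both highest in mesothelial cells, the lining of the lung surface, at 6512 ± 558 and 3825 ± 683 CPM. Second came peribronchial fibroblasts for Igfbp5 (1655 ± 287) and adventitial fibroblasts for Igfbp6 (1118 ± 53.7). Igfbp7, which binds the ligands weakly and is abundant in vessels, was highest in aerocytes, the capillary cells of gas exchange (4356 ± 273), above alveolar type 1 cells (2655 ± 322) in 6 of 6 libraries. The first class of every member was the same when the gate asked for 1 more marker. Igfbp6 was counted at 37.5 to 195 CPM in neutrophils and at 2.18 to 8.48 in B cells. Summed mesenchymal compartment markers were also higher in neutrophils than in B cells in all 6 libraries, at 81.8 to 337 against 44.9 to 200 CPM, and their part in the Igfbp6 level was not tested. Igfbp5 in gamma-delta T cells stood at 135 CPM in p16-DTR replicate 3 and at 1.05 to 7.62 in the other 5 libraries, and Igfbp6 in pericytes at 84.1 in control replicate 3 and 0.948 to 10.7 in the others. Mesothelial cells numbered 16 to 77 a library, below the chosen minimum of 20 cells in every library, and were not tested between the groups.

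Within the 19 classes, 143 member and class pairs were tested, and 4 passed an adjusted p of 0.05 (edgeR): 1 higher and 3 lower in the p16-DTR-labelled libraries. Over all genes in those classes the same rule called 0.324% of the tests, 0.134% higher and 0.19% lower. The members' median log2 fold change over all pairs was -0.14, and that of all genes lay between -0.01 and 0.01 in each class. By class the members' median differed in direction. It was -1.28 in CD4 T cells, -1.03 in natural killer cells and -0.90 in CD8 T cells. It was 0.44 in arterial cells, 0.13 in aerocytes and 0.04 in venous cells and in peribronchial fibroblasts. The 4 calls lay in peribronchial fibroblasts and CD4 T cells, and all concerned Igfbp4, Igfbp6 or Igfbp7.

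**Figure D2:**
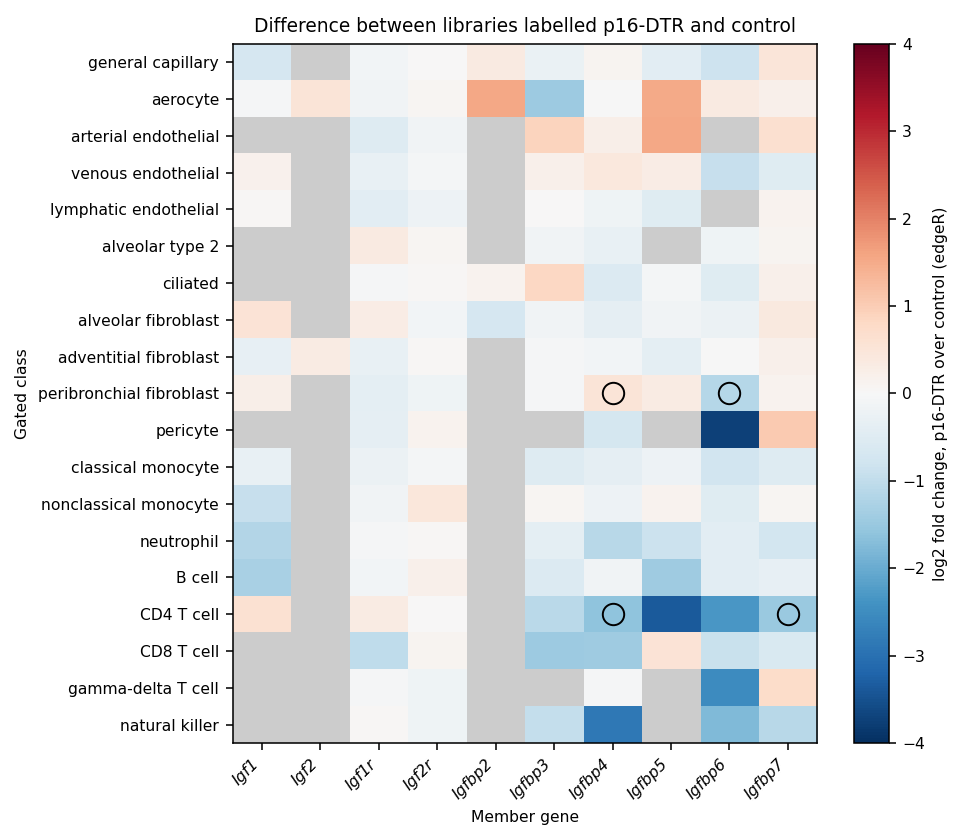
Log2 fold change of each member (columns) in each tested class (rows), p16-DTR-labelled libraries over control; grey cells were not tested for low counts, and rings mark the 4 calls at an adjusted p of 0.05. Igfbp6 is above 0 in 1 of the 17 classes tested, and the ringed pairs lie in 2 classes.

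Peribronchial fibroblasts, Hhip-expressing cells around the airways, showed a rise of Igfbp4 and a fall of Igfbp6. Igfbp4 stood at 554, 555 and 644 CPM in the p16-DTR-labelled libraries and at 416, 460 and 387 in the controls. The groups did not overlap, and the log2 fold change was 0.50 (SE 0.11, adjusted p = 0.0386, edgeR). Igfbp6 stood at 51.1, 50.1 and 43.6 against 142, 99.2 and 88.0. All 3 p16-DTR-labelled libraries were below every control, with a log2 fold change of -1.15 (SE 0.18, adjusted p = 0.0181, edgeR). Of 10895 genes tested in this class, 1.94% were called, against 2 of 8 members. With each library left out in turn, the Igfbp4 call held only without p16-DTR replicate 1, and adjusted p was 0.0619 to 0.14 without any other. The Igfbp6 call was lost without p16-DTR replicate 2 (0.0739) or p16-DTR replicate 3 (0.0772), and held in the other 4 fits (edgeR).

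Other values moved with these in the peribronchial gate, which held 84 to 216 cells a library. The summed markers of adventitial fibroblasts, the class where Igfbp4 and Igfbp6 are both high, were 1901 to 2602 CPM in the p16-DTR-labelled libraries and 2749 to 3018 in the controls. Most of that sum was Dcn (1343 to 1980 against 2060 to 2339). Pi16, another of these markers, was 0 to 0.589 against 0 to 6.15, where the groups overlapped. The summed alveolar fibroblast markers were 162 to 264 against 326 to 406, and the class's own markers 10104 to 10934 against 10944 to 11411. Stress genes were 19282 to 20134 against 20759 to 24440, and immune compartment markers 77.2 to 111 against 27.4 to 70.3. The part of these in the Igfbp6 and Igfbp4 results was not tested.

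The changes of Igfbp4 and Igfbp6 in peribronchial fibroblasts were set against those in other classes. Peribronchial fibroblasts were chosen because both members had their lowest adjusted p there in these same data. The fits without 1 library kept that choice. The share of all genes called in the same pairs of classes is not given, so the tests below are a description. In alveolar fibroblasts Igfbp4 stood at 49.3, 48.7 and 58.2 CPM against 66.7, 67.0 and 71.7 in the controls. That is lower without overlap (log2 fold change -0.37, SE 0.07) but was not called (adjusted p = 0.0572, edgeR). The test of the difference itself gave 0.87 on the log2 scale between peribronchial and alveolar fibroblasts (SE 0.11, adjusted p = 0.00317, edgeR), and it was called in 6 of 6 fits without 1 library. For Igfbp6 that difference was -0.91 (SE 0.18, adjusted p = 0.0253, edgeR), called in 4 of 6 such fits. In adventitial fibroblasts Igfbp4 (1729, 1588 and 1539 against 1649, 1850 and 1692) and Igfbp6 (1197, 1084 and 1058 against 1114, 1167 and 1085) overlapped between the groups. The difference between peribronchial and adventitial fibroblasts was 0.60 for Igfbp4 (SE 0.12, adjusted p = 0.0929, edgeR) and -1.13 for Igfbp6 (SE 0.17, adjusted p = 0.0569, edgeR). Neither passed, nor did either in any of 6 fits without 1 library.

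**Figure D3:**
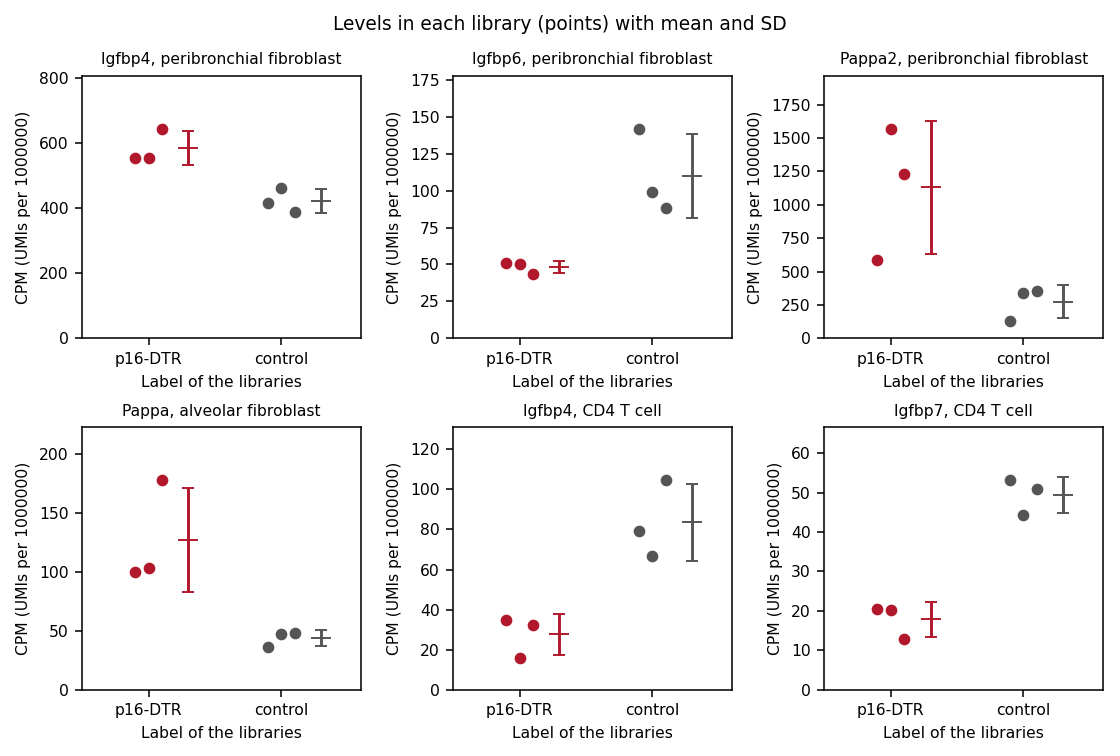
CPM in each library (points) with mean and SD (n = 3) for 6 gene and class pairs called between the groups. In each of the 6 panels the p16-DTR-labelled libraries lie wholly above or wholly below the controls; Pappa2 spans 586 to 1571 in the former.

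In alveolar fibroblasts, the largest mesenchymal class, 4 of 9 tested members did not overlap between the groups, against 26.9% of all genes tested there, and none was called, against 0.814%. Igfbp7 stood at 1018, 1047 and 1308 against 915, 867 and 819 (adjusted p = 0.0869, edgeR). Igfbp6 stood at 171, 163 and 173 against 198, 212 and 199 (adjusted p = 0.0786, edgeR). The remaining pair was Igfbp4 and Igf2r, given above, both lower. Summed markers of peribronchial fibroblasts in this class were 1547 to 1599 CPM in the p16-DTR-labelled libraries against 1382 to 1496, and those of the mesenchymal compartment 7717 to 9696 against 5788 to 7264. Those of the immune compartment were 42.2 to 72.8 against 30.6 to 40.2. All 3 were higher without overlap, and their part in these results and in that of Pappa was not tested. Igfbp3 in this class overlapped (474, 323 and 332 against 412, 412 and 442).

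CD4 T cells gave the remaining calls, 2 of 8 members tested, both lower under the p16-DTR label. In this class 1.37% of 12786 genes were called, 0.735% lower. The 8 members had a median log2 fold change of -1.28 there, against 0.003 for all genes. They ran from -3.37 for Igfbp5, which was not called, to 0.61 for Igf1. An unadjusted p under 0.05 was reached by 5 of the 8, and by 2203 of all genes (edgeR). Igfbp4 stood at 34.6, 15.9 and 32.2 CPM against 79.1, 66.9 and 105 in the controls, with no overlap, as for 21.8% of all genes there. Its log2 fold change was -1.61 (SE 0.28, adjusted p = 0.0458, edgeR). Igfbp7 stood at 20.6, 20.3 and 12.8 against 53.2, 44.3 and 50.8, with no overlap, a log2 fold change of -1.47 (SE 0.18) and an adjusted p of 0.0176 (edgeR). Igfbp7 overlaps Polr2b on the opposite strand. The counting strand is not given in the sources used, and whether reads of the pair were kept apart was not tested. The Igfbp4 call held only without control replicate 2, and adjusted p was 0.0613 to 0.145 without any other library. The Igfbp7 call was lost without p16-DTR replicate 2 (0.0779) or control replicate 3 (0.0675). With 1 more marker asked of the gate, neither was called (adjusted p = 0.139 and 0.158, edgeR).

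The share of cells with a UMI was set beside neutrophils and B cells, after thinning each cell to 5000 UMIs. These classes were taken to lack both genes, which was not tested. No profile of empty droplets was measured here, and the part of free RNA in these results was not tested. For Igfbp7 the share was 7.98%, 6.86% and 5.24% of CD4 T cells in the p16-DTR-labelled libraries and 13.7%, 11.5% and 10.3% in the controls. In neutrophils it was 9.14%, 5.93% and 5.56% against 11.8%, 9.80% and 9.32%. CD4 T cells lay below the neutrophils in 2 of 3 p16-DTR-labelled libraries and above them in 3 of 3 controls. In B cells the mean share was 6.13% in the p16-DTR-labelled libraries and 5.92% in the controls. Median depth before thinning was 15524.5 UMIs for CD4 T cells, 10211 for neutrophils and 13680 for B cells. Without thinning, the CD4 shares were 18.8%, 17.5% and 12.4% against 28.7%, 20.7% and 21.8%, and the mean neutrophil share 13.3% against 17.4%.

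For Igfbp4 the thinned share was 5.59%, 3.79% and 4.56% of CD4 T cells against 10.4%, 6.95% and 12.6% in the controls. In neutrophils it was 3.92%, 2.86% and 2.26% against 4.17%, 1.68% and 4.04%, so CD4 T cells were above them in all 6 libraries. The B cell mean was 1.74% against 2.38%. Without thinning the CD4 shares were 8.40%, 7.20% and 8.19% against 15.2%, 10.6% and 19.2%. Both members reached p = 0.1 between the groups in CD4 T cells, the smallest that an exact permutation test of 3 against 3 allows (two-sided, adjusted p = 0.781 over 250 tests).

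Igfbp4 in CD4 T cells lay mainly in cells with a UMI of Ccr7, the lymph node homing receptor of naive and central memory T cells, a split chosen after the values were seen. In the 801 cells with one, Igfbp4 stood at 115, 45.6 and 107 CPM in the p16-DTR-labelled libraries and at 187, 144 and 234 in the controls. The groups did not overlap in these cells. In the 2124 cells with none it stood at 7.06, 6.85 and 3.45 against 27.2, 24.2 and 6.39, where the groups overlapped. For Igfbp7, cells with a Ccr7 UMI stood at 20.1, 17.2 and 17.8 against 20.2, 17.7 and 53.6, where the groups overlapped. Cells with none stood at 20.8, 21.3 and 10.8 against 69.1, 59.0 and 48.7, with no overlap. Median depth was 14540.5 to 17253.5 UMIs in cells with a Ccr7 UMI and 13846 to 16041.5 in those with none.

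Other values moved with the CD4 T cell results. Over the whole class, Ccr7 was 79.3 to 131 CPM in the p16-DTR-labelled libraries and 146 to 245 in the controls, and Il17a, the cytokine of type 17 T cells, 14.7 to 84.9 against 197 to 287. Summed adventitial fibroblast markers were 60.5 to 73.8 against 113 to 154, and summed alveolar fibroblast markers 138 to 236 against 191 to 562. Summed endothelial compartment markers were 224 to 240 against 292 to 342, lower without overlap, and summed CD8 T cell markers 2387 to 2460 against 1932 to 2187, higher without overlap. Immune compartment markers were 6915 to 7310 against 6622 to 6684, and median depth 14047 to 15495 UMIs a cell against 15854.5 to 16327. Their part in the Igfbp4 and Igfbp7 results was not tested. In CD8 T cells Igfbp4 was also lower without overlap (20.6, 22.1 and 31.9 against 67.9, 60.4 and 75.9), as 15.4% of genes there did not overlap, and just missed the threshold (log2 fold change -1.42, adjusted p = 0.0507, edgeR), in a class where 0% of genes were called by edgeR, 1336 reached an unadjusted p of 0.05 and DESeq2 called 265. Without 1 library in turn, Igfbp4 in CD8 T cells was called in 2 of 6 fits, with adjusted p from 0.0364 to 0.206 (edgeR). Of the 7 members tested in CD8 T cells, 5 were lower without overlap: Igf1r, Igfbp3, Igfbp4, Igfbp6 and Igfbp7, against 9.54% of all genes lower in that way. Endothelial compartment markers (144 to 162 against 178 to 210 CPM) and stress genes (2915 to 3284 against 3290 to 3570) were lower without overlap too, and their part in these values was not tested.

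**Figure D4:**
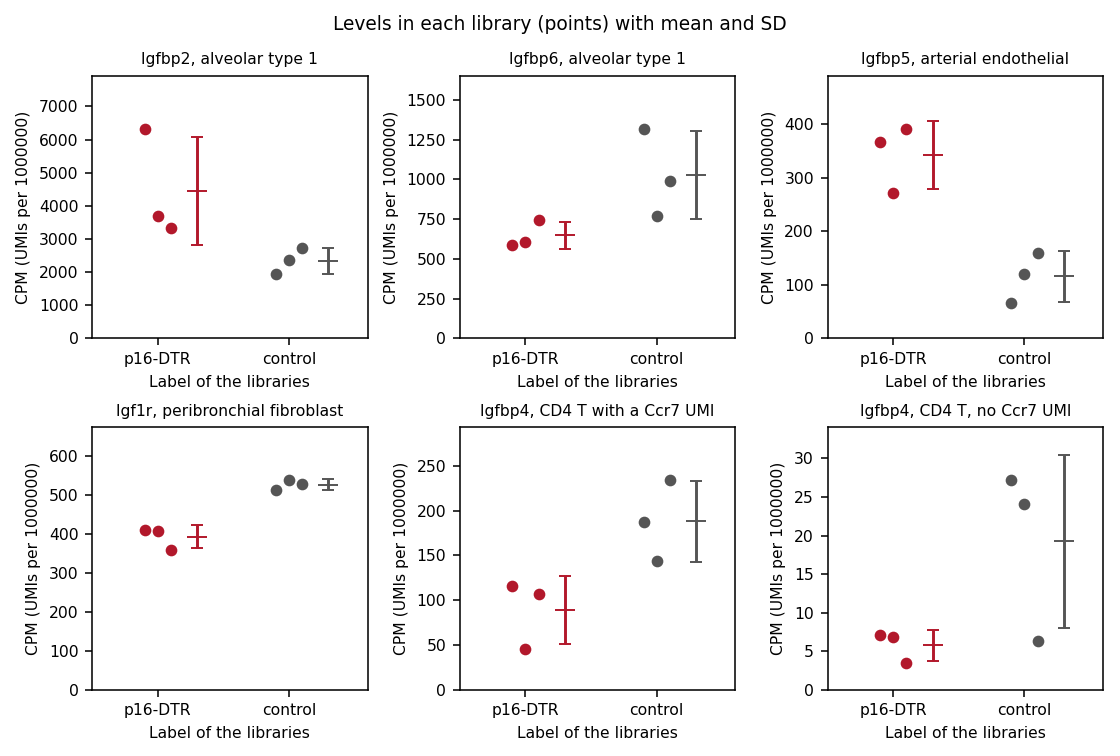
CPM in each library (points) with mean and SD (n = 3) for 4 member and class pairs that were not called, and for Igfbp4 in CD4 T cells split by Ccr7. Igfbp2 in alveolar type 1 cells reaches 6334 in 1 library labelled p16-DTR, and Igfbp4 in cells with no Ccr7 UMI has 1 low control library (6.39).

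Alveolar type 1 cells numbered 41 to 125 a library and were tested after the cell numbers were seen. Igfbp2 stood at 6334, 3687 and 3335 CPM in the p16-DTR-labelled libraries and at 1941, 2382 and 2716 in the controls. It was higher without overlap (log2 fold change 0.96, SE 0.19) but not called (adjusted p = 0.0898, edgeR). Without 1 library in turn, adjusted p ran from 0.0431, without control replicate 3, to 0.282, without p16-DTR replicate 2, and the log2 fold change was as low as 0.64 (edgeR). Igfbp6 in the same cells moved the other way, at 590, 608 and 743 against 1319, 769 and 988, also without overlap or a call (log2 fold change -0.63, adjusted p = 0.25, edgeR). In this class 14.4% of genes did not overlap and 0.0886% were called. Median depth in it ranged from 1824 to 5165 UMIs a cell across the libraries. The mitochondrial share was 1.85%, 2.04% and 1.82% in the p16-DTR-labelled libraries against 1.27%, 1.56% and 1.40%. Summed epithelial compartment markers were 2916, 2875 and 3347 CPM against 2467, 2557 and 2682. Both were higher without overlap, and their part in the Igfbp2 and Igfbp6 results, and in that of Socs2 given further on, was not tested.

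No member was called in general capillary cells, aerocytes, or arterial, venous or lymphatic endothelial cells. Of all genes, 1.03% were called in venous and 0% in lymphatic cells, and the shares of the others are given below. Igfbp5 in arterial cells stood at 366, 271 and 392 CPM in the p16-DTR-labelled libraries and at 66.2, 121 and 160 in the controls. The groups lay well apart, with a log2 fold change of 1.56 (SE 0.28), yet the adjusted p was 0.128 (edgeR), in a class with 64 to 119 cells a library where 0.0388% of genes were called and 14.5% did not overlap. Igfbp4 in venous cells stood at 301, 239 and 288 against 190, 203 and 230, higher without overlap, as 21.0% of genes there did not overlap (adjusted p = 0.107, edgeR). Igfbp7 did not overlap in aerocytes (4495, 4606 and 4664 against 4032, 4063 and 4278) or in general capillary cells (214, 143 and 152 against 132, 127 and 120), and was called in neither, against 0.00768% and 0.243% of all genes there. Of all genes, 21.1% did not overlap in aerocytes and 29.1% in general capillary cells. Its log2 fold changes were 0.19 and 0.48. In aerocytes and in general capillary cells 1 member each was lower without overlap, against 14.4% and 20.2% of all genes. The lowest log2 fold change of a member was -1.46 in aerocytes, for Igfbp3, and -0.83 in general capillary cells.

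Other values moved with these endothelial levels, each without overlap. In arterial cells stress genes were 5370 to 8259 CPM in the p16-DTR-labelled libraries against 9600 to 13866, and endothelial compartment markers 7454 to 8408 against 6710 to 7307. Gja5, an arterial marker of the gate, was 344 to 391 there against 269 to 300. In venous cells the mitochondrial share was 1.59% to 1.84% against 1.47% to 1.53%, and stress genes were 7819 to 10309 against 11472 to 13101. Endothelial compartment markers in aerocytes were 11080 to 11578 against 10794 to 11054, and stress genes in general capillary cells 5461 to 6467 against 7106 to 9787. The arterial gate also held markers of other endothelial classes, and these sums overlapped between the groups. Venous markers were 3252 to 3783 CPM against 2678 to 3557, and general capillary markers 3045 to 4071 against 2280 to 3547. The arterial markers themselves were 2028 to 2205 against 1727 to 2193. The part of all these in the Igfbp4, Igfbp5 and Igfbp7 values was not tested.

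Summed over all retained cells of a library, none of the 10 members was called, as was none of the 21630 genes tested (0%), although 5043 genes reached an unadjusted p of 0.05 in edgeR. DESeq2 called none of the members either and 2751 genes. Igfbp4 (195, 178 and 161 CPM against 257, 199 and 201) and Igfbp6 (128, 120 and 90.7 against 225, 137 and 152) were lower without overlap, as were 22.5% of all genes. Such sums cannot tell fewer cells of a type from less RNA per cell. Adventitial fibroblasts, which hold the largest share of Igfbp4 and Igfbp6, numbered 297 to 444 in the p16-DTR-labelled libraries and 352 to 985 in the controls.

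Of 41 further genes of the pathway (hormone axis, carriers, proteases, adaptors and kinases), 37 were tested in at least 1 of the 19 classes and 5 were called in at least 1. Over 556 gene and class pairs, 9 calls were higher and 1 lower, and 6 of the 9 were of 1 gene, Pdpk1. The 1 lower call was Htra1 in CD4 T cells, which passed the filter on low counts only through the controls. Over all genes 0.324% of the tests were called, 0.134% higher and 0.19% lower. Among the proteases, Pappa, which encodes the IGFBP4-cutting PAPP-A, rose in alveolar fibroblasts: 99.5, 103 and 178 CPM against 36.1, 47.5 and 48.4. Its log2 fold change was 1.55 (SE 0.22, adjusted p = 0.0432, edgeR). Pappa2 rose in peribronchial fibroblasts, at 586, 1571 and 1234 against 131, 338 and 353 (log2 fold change 2.08, SE 0.39, adjusted p = 0.0251, edgeR). Both groups of libraries were apart for each, and each call held in 2 of 6 fits without 1 library. Pappa held without p16-DTR replicate 1 or control replicate 2 (otherwise 0.0663 to 0.129), and Pappa2 without p16-DTR replicate 1 or control replicate 3 (otherwise 0.056 to 0.103).

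The other calls were in the kinase cascade and 1 protease. Pdpk1, the kinase that activates AKT, was called in 6 of 19 classes and was higher without overlap in all 19, with log2 fold changes of 0.36 to 0.67. By class, 3.59% to 10.9% of all genes were higher without overlap. Of all genes, 0.243% were called in general capillary cells, 1.03% in venous cells, 0.283% in natural killer cells, 0.814% in alveolar fibroblasts, 1.94% in peribronchial fibroblasts and 1.37% in CD4 T cells. In fits without 1 library the Pdpk1 call held in 3 of 6 for general capillary cells, alveolar fibroblasts and CD4 T cells each, in 2 for peribronchial fibroblasts, and in 0 for venous and natural killer cells. A shift of like size in every class cannot be told apart from a difference between the mice that is not specific to a cell type. In CD4 T cells Pik3r1, a regulatory subunit of PI3-kinase, rose (266, 315 and 287 CPM against 210, 170 and 201, adjusted p = 0.0337, edgeR). Htra1, a secreted serine protease, was counted at 2, 4 and 2 UMIs there against 18, 15 and 20 in the controls, too few for a firm fold (adjusted p = 0.0297, edgeR). Htra1 passed the filter on low counts only through the controls, so no fall is read from this call. Among the classes added later, Socs2, a feedback inhibitor of growth hormone signalling, was called higher in alveolar type 1 cells. It stood at 32.6, 42.8 and 36.0 CPM against 12.2, 7.60 and 10.3 (adjusted p = 0.0356, edgeR). These were 24, 24 and 21 UMIs against 10, 12 and 17. Socs2 passed the filter on low counts only through the p16-DTR-labelled libraries, so no rise is read from this call. Among fits without 1 library, the call held only without control replicate 3. The calls of Pik3r1 and Htra1 held in 2 and 1 of 6 such fits.

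Genes whose level followed each member over the 30 classes are given as a description, since classes share libraries. The Pearson correlation of log2 mean levels was highest for Igf2r with Airn (0.95). Airn is an imprinted RNA that overlaps Igf2r on the opposite strand (Igf2r lies at chr17:12682406-12769664, minus strand, GENCODE M21 on GRCm38). The counting strand is not given in the sources used here, and whether reads of the pair were kept apart was not tested. Igfbp3 was followed by Kcns3 (0.95) and Adamts17 (0.94), Igfbp7 by Samd4 (0.90), Igfbp2 by Frmpd1 (0.90), Igfbp4 by Iigp1 (0.89), Igfbp5 by Adamts5 (0.89) and Igfbp6 by Fzd2 (0.88). Igf1 was followed by Eya4 (0.85), Igf2 by Zfp536 (0.81) at its very low level, and Igf1r by Clip1 (0.69).

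Other members also share ground with counted genes. Igfbp7 (chr5:77349240-77408041, minus strand) overlaps Polr2b and Gm34648 on the opposite strand, Igf1 (chr10:87858265-87937042, plus strand) overlaps Igf1os, and Igf2 (chr7:142650766-142666816, minus strand) overlaps Igf2os and, on its own strand, Gm49394, whose reads strand could not separate from those of Igf2. As for Igf2r, whether reads of these members and of the genes on the opposite strand were kept apart was not tested. No counted gene overlaps Igfbp4 (chr11:99041244-99054392, plus strand), Igfbp6 (chr15:102144362-102149511, plus strand), Igfbp2 (chr1:72824503-72852474, plus strand), Igfbp3 (chr11:7206086-7213923, minus strand), Igf1r (chr7:67952827-68233668, plus strand) or Igfbp5 (chr1:72857932-72874884, minus strand). Igfbp2 and Igfbp5 thus lie side by side on chromosome 1, yet they led in different classes.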

How the data were processed

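Single-cell 3' RNA-seq (10x GEM-X) of 6 lung libraries was used. In the deposited files each value is an unnormalised UMI count, made by the authors with Cell Ranger 8.0.1 on mm10, per the submitters' processing notes; the annotation and counting strand are not given in the sources used here. A cell was kept with 300 genes or more, 500 UMIs or more and a mitochondrial share of 15% or less. A marker passed at 1 UMI per 10000 or 10% of its 99.9th percentile, whichever was higher. A cell entered the class with strictly most markers, at least 3 of 7, within the compartment with most markers; cells with 3 or more markers of another compartment were left out, and no doublet caller was run.

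Counts were summed per library and class. Classes with at least 50 cells in every library (19) were tested with edgeR 4.0.16 (filterByExpr, TMM, quasi-likelihood, Benjamini-Hochberg over all genes of the class; R 4.3.3), the scripts having been tested on simulated data. Classes with 20 to 49 cells were added after the cell numbers were seen. Levels are CPM, a gene's UMIs per 1000000 UMIs of the class. Differences between classes were tested as an interaction with the library as a block, class orders with an exact sign-flip test on log2(CPM + 1), and shares with an exact permutation test. Named genes were the 10 members, pathway genes called in at least 1 class, and the 3 genes most correlated with each member among those above 50 CPM in a class. The members, lists and gate were chosen with earlier results of these data known. Alternatives were DESeq2 1.42.0, other size factors, no filter, a replicate block, each library left out, stricter cell and marker filters, mixed cells kept and the top 5% of cells by UMIs left out.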

Additional observations from a re-analysis of the deposited data

Results flagged for a closer look

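The change between p16-DTR-labelled and control libraries differed between gated classes for 3 members, by edgeR's interaction test with Benjamini-Hochberg adjustment. For Igfbp4 the log2 change in peribronchial fibroblasts exceeded that in alveolar fibroblasts by 0.87 (adjusted p = 0.00317), in classical monocytes by 0.86 (0.0494), in CD4 T cells by 2.14 (0.0275) and in CD8 T cells by 1.96 (0.0245). These were 4 of 18 classes compared. They were called in 6, 1, 2 and 3 of 6 fits without 1 library, in that order.

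For Igfbp6 the difference between peribronchial and alveolar fibroblasts was -0.91 (adjusted p = 0.0253, edgeR), called in 4 of 6 such fits, the only one of 16 comparisons that passed.

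For Igfbp7 the change in CD4 T cells lay below that in general capillary cells (-1.90, adjusted p = 0.0204), aerocytes (-1.69, 0.0433), lymphatic endothelial cells (-1.64, 0.028), alveolar fibroblasts (-1.87, 0.0433), adventitial fibroblasts (-1.72, 0.0314) and peribronchial fibroblasts (-1.61, 0.049), all by edgeR, 6 of 18 classes compared. In that order they were called in 5, 1, 3, 2, 1 and 2 of 6 fits without 1 library, and the last missed the threshold with RLE size factors (adjusted p = 0.0506, edgeR). None of the other immune classes compared with CD4 T cells for Igfbp7 passed. Their differences ran from -0.49 in natural killer cells (adjusted p = 0.873) to -2.17 in gamma-delta T cells (0.861, edgeR). For CD8 T cells the difference was -0.91 (adjusted p = 0.428, edgeR). Arterial and venous endothelial cells, alveolar type 2 cells, ciliated cells and pericytes did not pass either. For each of the 3 members, the class that set the differences was chosen for its lowest p. For none of the 3 members is the share of all genes called in the same pairs of classes given here. Whether the counts of differences exceed that share was not tested.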

How the results depend on the processing

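Of the members, 4 calls stood in 19 classes. The count was 17 with DESeq2, 19 with no filter on low counts, 2 with the stricter gate, 6 with a replicate block and 0 to 6 without 1 library (0 without p16-DTR replicate 2); the cause was not tested, beyond the smaller number of libraries. All 4 calls were among those of DESeq2 and of the unfiltered fit. Beside these counts and those of the pathway list below, the share of all genes called moved too. In peribronchial fibroblasts 1.94% became 2.77% with DESeq2, 5.02% with no filter, 1.77% with the stricter gate and 4.18% with the block. In CD4 T cells 1.37% became 4.22%, 1.96%, 0.299% and 0.665%, in that order. In alveolar fibroblasts 0.814% became 8.17%, 2.64%, 0.43% and 1.95%. Of the pathway list, 10 calls became 47 with DESeq2, 35 with no filter, 17 without the cells of most UMIs, 12 with a replicate block and 1 to 10 without 1 library. The 11 differences between classes became 2 to 13 without 1 library. The median share of a member's UMIs in gated cells was 88.7%, and 80.2% with the stricter gate. Igf1 in adventitial fibroblasts moved from -0.33 to 0.044 on the log2 scale without control replicate 1, and to -0.52 without control replicate 2. Over all cells no member was called under any alternative run. Libraries of the same number correlated in their deviations from the group mean at 0.44, -0.08 and 0.40. For replicates 1 and 3 this was the highest correlation with a library of the other group. For replicate 2 another library was higher (0.14). The labels give only the number, a shared batch was not tested, and the block is not taken as a pairing. Of the 6 member calls under the block, 4 were those of the main fit, and Igfbp4 in alveolar fibroblasts was among the rest (adjusted p = 0.0463, edgeR). Cell numbers limit the precision of the smaller classes, with as few as 41 alveolar type 1 and 64 arterial cells in 1 library.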
